A study of Mus musculus with 22 samples.

Results

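The genes described here build and supply the MHC class I complex, the surface receptor that shows peptides from inside a cell to CD8 T cells and natural killer cells. They were chosen by name: the heavy chains H2-K1 and H2-D1, the light chain B2m, the peptide transporter subunits Tap1 and Tap2, the loading factor Tapbp, the immunoproteasome subunits Psmb8, Psmb9 and Psmb10, and the transactivator Nlrc5. Earlier results of these data were known at that choice, so counts of members set beside shares of all genes are a description. All 10 symbols matched 1 Ensembl gene each among the 55487 genes counted, and all 10 passed the filter on low counts in every comparison. RNA sequencing had been run on 22 mouse libraries in 8 groups. The 10 whole dorsal root ganglion (DRG) libraries, from spinal levels T10 to L5, came from mice labelled Postn knock out (KO) and wild-type (WT) mice after 5 days of imiquimod (IMQ) or vehicle: 2 KO IMQ, 3 KO vehicle, 2 WT IMQ and 3 WT vehicle libraries. IMQ activates Toll-like receptor 7 and is used on mouse skin as a psoriasis model. Postn encodes periostin, a secreted matricellular protein. The 12 culture libraries came from DRG neuron cultures of both genotypes kept for 72 h with recombinant POSTN (rPOSTN) or without it (control), 3 libraries in each of 4 groups. The sources used here give no strain, age, type of Postn allele or site of IMQ treatment, and do not say whether a library pools animals. No label says that replicates are separate animals or cultures, so every p measures the spread between these samples, which may be technical.

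In cells that present antigen, proteasomes cut proteins to peptides, the TAP transporter carries these into the endoplasmic reticulum, tapasin holds the empty class I complex at the transporter, and the heavy chain leaves with B2m and peptide for the surface. Interferons exchange the constitutive catalytic subunits of the proteasome (PSMB5, PSMB6, PSMB7) for their inducible counterparts PSMB8, PSMB9 and PSMB10, and they raise the other genes of the pathway as well. Healthy neurons are known for low class I levels, and glia, macrophages and endothelium for higher ones. In the gene order of RefSeq (GRCm38.p6), Psmb9, Tap1, Psmb8 and Tap2 neighbour each other on chromosome 17, which also carries Tapbp, H2-K1 and H2-D1. B2m lies on chromosome 2, and Psmb10 and Nlrc5 on chromosome 8.

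RefSeq promoter windows were at hand for 8 of the 10 members, all but Tap2 and Nlrc5. Those of the 3 genes that make the class I complex itself are shown because they hold the same 4 motifs, with an X2 core followed by a Y core in each, and the bases between the Tap1 and Psmb9 starts are shown because both genes are read from them in opposite directions. Each is written 5′ to 3′ on the strand of the named gene and ends 1 base before the annotated start. The last one is on the Tap1 strand and lies between both starts. Capitals mark matches, on either strand, to AANNGAAA (core of the interferon-stimulated response element), the kappaB type (GGG, any 2 bases, TT, any base, CC), TGACG (core of the X2 box, a CREB/ATF type motif) and ATTGG (Y box core, the reverse of CCAAT).
B2m, chr2:122147507-122147686, GRCm38.p6, plus strand: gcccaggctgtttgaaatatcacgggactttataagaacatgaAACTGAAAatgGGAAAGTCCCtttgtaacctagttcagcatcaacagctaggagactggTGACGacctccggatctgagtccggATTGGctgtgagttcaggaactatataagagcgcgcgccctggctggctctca
H2-K1, chr17:34000348-34000527, GRCm38.p6, minus strand: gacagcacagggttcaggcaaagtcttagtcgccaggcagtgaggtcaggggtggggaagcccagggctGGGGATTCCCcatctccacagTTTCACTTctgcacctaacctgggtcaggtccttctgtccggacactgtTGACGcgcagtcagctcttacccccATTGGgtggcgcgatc
H2-D1, chr17:35262914-35263093, GRCm38.p6, plus strand: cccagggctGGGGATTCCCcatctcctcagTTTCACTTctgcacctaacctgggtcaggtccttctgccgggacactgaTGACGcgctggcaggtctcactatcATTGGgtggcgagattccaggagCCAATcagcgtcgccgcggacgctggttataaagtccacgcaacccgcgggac
Tap1-Psmb9, chr17:34187331-34187555, GRCm38.p6, plus strand: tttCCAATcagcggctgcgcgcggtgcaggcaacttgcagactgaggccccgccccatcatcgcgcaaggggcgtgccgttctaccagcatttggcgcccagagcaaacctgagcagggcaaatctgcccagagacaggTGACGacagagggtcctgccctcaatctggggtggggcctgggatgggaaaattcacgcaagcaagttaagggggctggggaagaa

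The H2-K1 and H2-D1 stretches were near copies of each other: 107 of 119 aligned bases were identical. Within 250 bases upstream, B2m, H2-K1 and H2-D1 each held all 4 motifs. The interferon response core was found in these 3 of the 8 members, against 21.3% of 32851 RefSeq promoters searched the same way, and the kappaB motif in the same 3, against 4.11%. TGACG was present in 5 of 8 members (B2m, H2-K1, H2-D1, Tap1 and Psmb9) and in 17.8% of all promoters. ATTGG was present in 6 of 8 (those 5 and Tapbp) and in 33.8%. In B2m, H2-K1 and H2-D1 the Y box core followed the X2 core on the same strand with exactly 25 bases from start to start. That order, with any distance of 15 to 30 bases, occurred in 0.533% of all promoters; the window was set after these sequences had been seen. TTCNNNGAA, the gamma-interferon activated site (GAS), was found in Psmb8 alone among the 8 and in 7.02% of all promoters. The TGACG and the CCAAT between Tap1 and Psmb9 are each counted for both genes, and of 2 RefSeq entries for H2-K1 1 is shown. A match describes the letters in this window and is not evidence of binding.

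**Figure D1:**
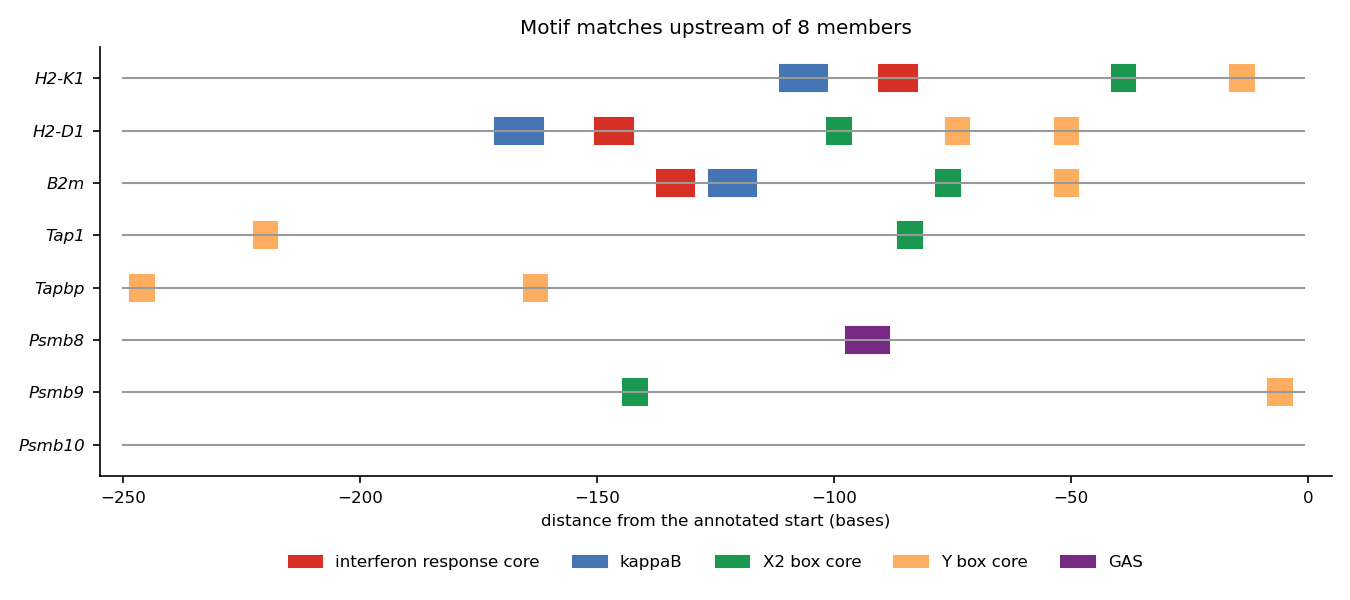
Motif matches in the 250 bases upstream of 8 members, by distance from the annotated start in bases (x axis), 1 line per gene, coloured by motif. H2-K1 and H2-D1 carry the 4 motifs in the same order. H2-D1 has 1 more Y core, at a place that in H2-K1 falls past the annotated start and was not searched. In H2-K1, H2-D1 and B2m an X2 core lies 25 bases before a Y core.

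Library totals ran from 16.7 to 24.1 M counts. The label check held in the ganglia, where Postn was at 3.39 to 7.42 CPM (counts per M counts of a library, after scaling) in KO and at 20.9 to 49.7 CPM in WT libraries. In culture Postn was at 69.9 to 449 CPM in KO and at 684 to 1011 CPM in WT libraries, and both KO libraries numbered 3, at 449 CPM with rPOSTN and 401 CPM in control, stood above the other KO cultures (69.9 to 108 CPM). The library WT IMQ 2 lacked Xist, at 0.176 CPM against 196 to 235 CPM in the other ganglia, and so did the WT cultures numbered 1 and 2 (0.443 to 0.847 CPM, against 593 to 1256 CPM in the other cultures). Summed over 10 neuron markers, cultures held 5477 to 7334 CPM and ganglia 10690 to 13700 CPM. Cultures also held satellite glia markers (1805 to 2581 CPM over 6 genes), fibroblast markers (587 to 1477 CPM over 6) and endothelial markers (168 to 253 CPM over 6), so their values are those of a mixed culture.

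Per kilobase of transcript, B2m was the most abundant member in all 8 groups, and H2-D1 exceeded H2-K1. In WT IMQ ganglia the mean levels were 519 CPM per kb for B2m, 176 for H2-D1, 113 for H2-K1, 33.6 for Tapbp and 28.5 for Psmb10. Psmb8 followed with 16.5 CPM per kb, Tap2 with 8.36, Psmb9 with 5.17 and Tap1 with 5.00, and Nlrc5, a regulator rather than a structural part, was lowest with 1.07. In WT vehicle ganglia the same genes stood at 307, 107, 64.3, 28.3, 25.2, 8.22, 6.44, 3.28, 2.89 and 0.794 CPM per kb, in the order just given. Reads of H2-K1, H2-D1 and the other class I heavy chains can be split between near-identical genes by the counting step, so the share of each is uncertain. Exons of 6 members overlap a gene on the opposite strand in GENCODE M21, among them Tap1 and Psmb9 with each other, and the sources used here do not give the strand setting of the counting.

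**Figure D2:**
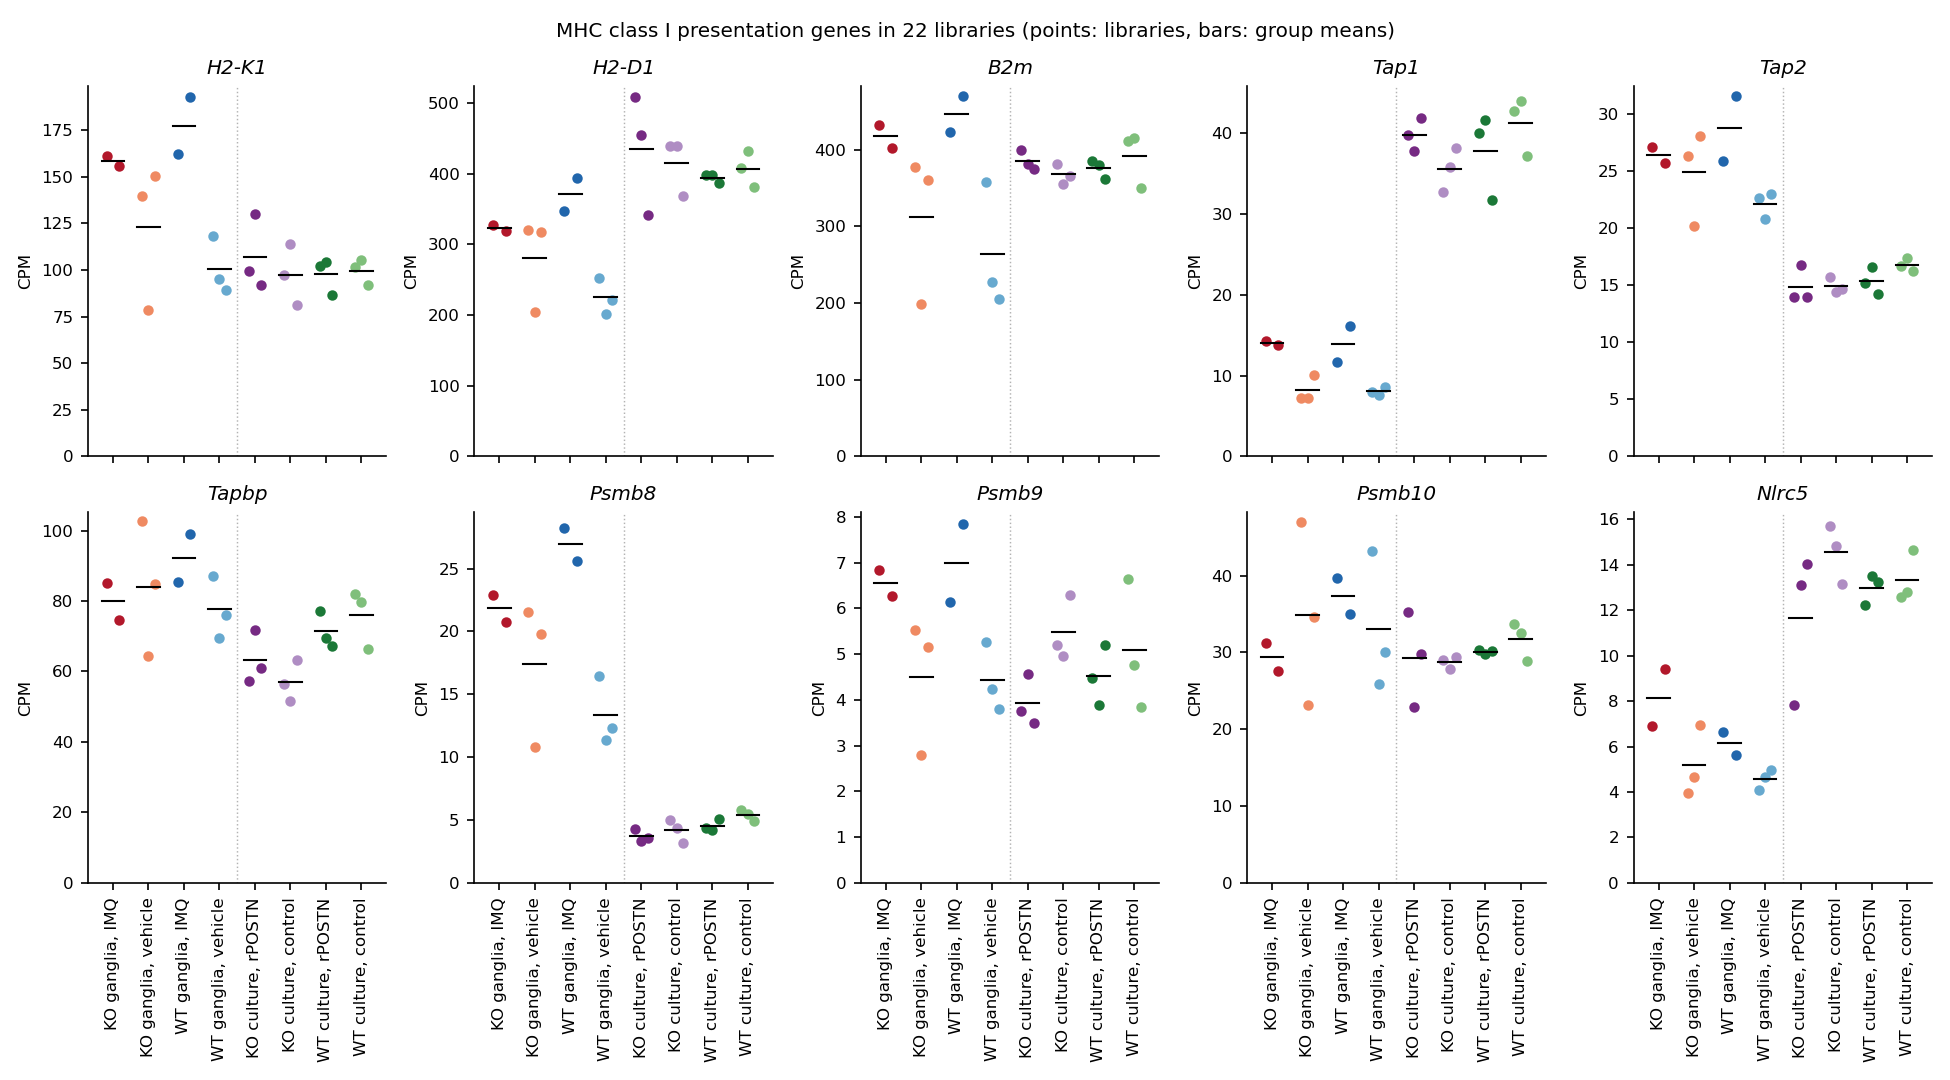
CPM (y axis, linear, from 0) of the 10 members in each library (points) of the 8 groups, with group means as bars; the dotted line parts ganglia from cultures. Both IMQ groups lie above their vehicle groups for Tap1, Psmb9, B2m and H2-K1, and Tap1 is higher and Psmb8 lower in every culture than in every ganglion.

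In ganglia of IMQ-treated mice most class I genes were higher than with vehicle in the mean, with the larger median in WT, but no member passed the test across all genes in either genotype. In KO ganglia 8 of 10 members had a positive log2 fold change, with a median of 0.35 against -0.0054 over all 17197 genes tested, and edgeR called 0 of 10, where it called 1.1% of all genes (1.09% higher and 0.0174% lower). In WT ganglia all 10 were positive, with a median of 0.69 against -0.0081 over all genes, and edgeR again called 0 of 10, where it called 1.3% of all genes (1.12% higher and 0.18% lower). At an unadjusted p under 0.05, 2 of 10 members were higher in KO, against 5.24% of all genes (8.39% in either direction), and 7 of 10 in WT, against 4.43% (7.27% in either direction). In KO, all IMQ libraries lay above all vehicle libraries for 4 members (12.3% of all genes), and in WT for 8 members (11.4%). DESeq2 called 1 member in KO, Tap1, where it called 1.25% of all genes, and 3 in WT, H2-D1, Psmb8 and Tap1, where it called 1.89%.

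Among the subunits that cut peptides, Psmb8, the inducible chymotrypsin-like subunit, had the largest difference in WT. It measured 22.9 and 20.8 CPM in KO IMQ ganglia, against 21.5, 10.8 and 19.8 CPM in KO vehicle ganglia. In WT it measured 28.2 and 25.6 CPM with IMQ, against 16.5, 11.4 and 12.3 CPM with vehicle. The WT groups did not overlap, whereas in KO 1 vehicle library, number 1, lay among the IMQ libraries. The log2 fold change was 0.33 ± 0.27 (SE) in KO (edgeR adjusted p = 0.669) and 1.01 ± 0.26 in WT (adjusted p = 0.158). With DESeq2 the WT difference was called (adjusted p = 0.0168), as it was with the replicate number as a block (0.0367), with only the WT groups in the fit (0.0485) and with the length offset described below (0.0120). Its adjusted p ran from 0.0120 to 0.619 over 11 alternatives.

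Psmb9, the inducible counterpart of Psmb6, was a low gene with a similar pattern in both genotypes. Its levels were 6.84 and 6.27 CPM in KO IMQ, against 5.52, 2.80 and 5.16 CPM in KO vehicle ganglia. WT IMQ ganglia held 6.14 and 7.84 CPM, against 5.26, 4.24 and 3.80 CPM in WT vehicle ganglia. Neither pair overlapped, and the log2 fold changes were 0.55 ± 0.28 in KO (adjusted p = 0.627) and 0.66 ± 0.27 in WT (adjusted p = 0.617). Psmb10, the inducible trypsin-like subunit, overlapped in both, at 27.6 to 31.3 CPM in KO IMQ against 23.1 to 47.0 CPM in KO vehicle and 35.0 to 39.7 CPM in WT IMQ against 25.9 to 43.3 CPM in WT vehicle ganglia. Its log2 fold changes were -0.24 ± 0.29 in KO and 0.17 ± 0.28 in WT.

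Tap1, a transporter subunit widely followed as an interferon target, had almost the same difference in both genotypes. It stood at 14.3 and 13.8 CPM in KO IMQ ganglia, against 7.28, 7.18 and 10.05 CPM in KO vehicle ganglia. WT ganglia held 11.7 and 16.2 CPM with IMQ, against 7.98, 7.54 and 8.60 CPM with vehicle. Every IMQ library lay above every vehicle library of either genotype. The log2 fold change was 0.78 ± 0.19 in KO (adjusted p = 0.127) and 0.79 ± 0.19 in WT (adjusted p = 0.109), the smallest adjusted p of the 10 members in each genotype. Tap1 was called in both genotypes by DESeq2 (adjusted p = 0.0388 in KO and 0.0248 in WT), without the filter on low counts (0.0407 and 0.0364, KO first) and with the replicate block (0.0385 and 0.0345, KO first). Over 11 alternatives its adjusted p ran from 0.0385 to 0.637 in KO and from 0.0248 to 0.877 in WT. Without WT IMQ 2, the library that lacked Xist, the WT log2 fold change was 0.54.

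Tap2, the partner subunit of the transporter, differed less. KO IMQ ganglia had 27.1 and 25.7 CPM, against 26.3, 20.2 and 28.2 CPM in KO vehicle ganglia, and the groups overlapped. WT IMQ ganglia had 25.9 and 31.6 CPM, against 22.6, 20.8 and 23.1 CPM in WT vehicle ganglia, and these did not. The log2 fold changes were 0.09 ± 0.15 in KO and 0.38 ± 0.15 in WT (adjusted p = 0.841 and 0.594, KO first). Tapbp, which encodes tapasin, overlapped between IMQ and vehicle in both genotypes, with 74.7 to 85.1 against 64.5 to 103 CPM in KO and 85.5 to 99.1 against 69.6 to 87.1 CPM in WT.

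The heavy chains hold the peptide at the cell surface. H2-K1 had 161 and 156 CPM in KO IMQ ganglia, against 140, 78.7 and 150.5 CPM in KO vehicle ganglia, and 162 and 193 CPM in WT IMQ ganglia, against 118, 94.9 and 89.5 CPM in WT vehicle ganglia. Neither pair overlapped, though KO vehicle 1 and 3 came close to the IMQ libraries. H2-D1 had 328 and 319 CPM in KO IMQ, against 320, 205 and 317 CPM in KO vehicle ganglia, and 347 and 394 CPM in WT IMQ, against 253, 201 and 222 CPM in WT vehicle ganglia. Only the WT groups were apart. The log2 fold changes of H2-K1 were 0.37 ± 0.24 in KO and 0.82 ± 0.24 in WT (adjusted p = 0.646 and 0.253, KO first), and those of H2-D1 were 0.21 ± 0.19 in KO and 0.72 ± 0.19 in WT (adjusted p = 0.702 and 0.160, KO first). H2-D1 in WT was called by DESeq2 (adjusted p = 0.0210), without the filter (0.0274) and with the length offset (0.0284), within a range of 0.0210 to 0.855 over 11 alternatives.

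B2m, the light chain of every class I complex, was the most abundant member. It measured 432 and 403 CPM in KO IMQ ganglia, against 378, 199 and 360 CPM in KO vehicle ganglia. In WT it measured 422.5 and 469 CPM with IMQ, against 358, 228 and 205 CPM with vehicle. Groups were apart in both genotypes, with log2 fold changes of 0.42 ± 0.29 in KO (adjusted p = 0.650) and 0.76 ± 0.29 in WT (adjusted p = 0.499). B2m has a short transcript (860 bases), and the ganglion libraries differed in how their levels leaned on transcript length: the slope of log2 CPM on log2 length was -0.22 in KO vehicle 1 and -0.18 in WT vehicle 1, and -0.05 to 0.16 in the other 8. KO vehicle 1 and WT vehicle 1 were also the highest vehicle libraries of their genotype for B2m. KO vehicle 3, with a slope of -0.046, came close to KO vehicle 1 at 360 CPM. The part of the length trends in the B2m levels was not tested. With an offset that removes each library's length trend, B2m was called in both, at 0.75 in KO (adjusted p = 0.0366) and 0.86 in WT (adjusted p = 0.0143). This offset called 4 members in WT (B2m, H2-K1 at an adjusted p of 0.0393, H2-D1 and Psmb8), where it called 2.06% of all genes. In KO it called 1 member, where it called 1.62% of all genes.

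Nlrc5, the transactivator of class I promoters, was the one member whose fold change was larger in KO. It had 6.90 and 9.40 CPM in KO IMQ ganglia, against 3.94, 4.65 and 6.95 CPM in KO vehicle ganglia, and 6.65 and 5.62 CPM in WT IMQ ganglia, against 4.08, 4.66 and 4.95 CPM in WT vehicle ganglia. KO vehicle 3 overlapped the KO IMQ libraries, and the WT groups were apart. The log2 fold changes were 0.65 ± 0.24 in KO (adjusted p = 0.499) and 0.43 ± 0.25 in WT (adjusted p = 0.923).

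**Figure D3:**
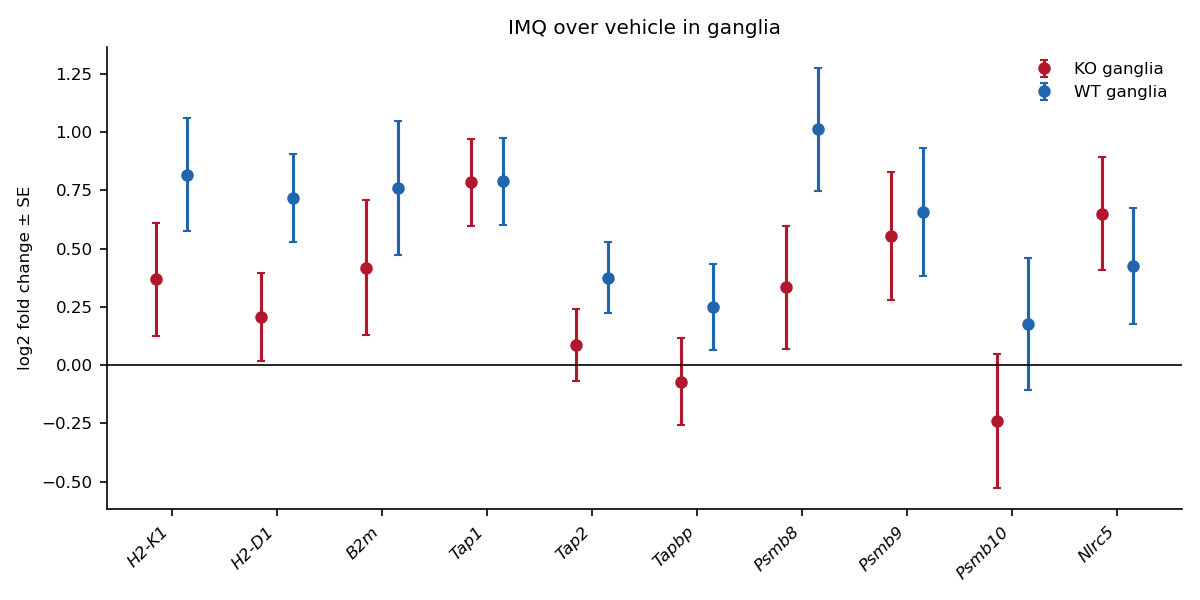
Log2 fold change of IMQ over vehicle for each member (points) with its SE (bars), in KO (left of each pair) and WT ganglia (right). All 10 WT points lie above 0, from 0.17 to 1.01, and 8 of 10 KO points do, with Tap1 at 0.78 in KO and 0.79 in WT.

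Whether IMQ acted differently in KO and WT was tested on the difference of the fold changes. That difference (KO minus WT) was negative for 9 of 10 members, with a median of -0.33 against -0.0044 over all genes. No member was called by edgeR (0 of 10, and 0.0% of all genes), none had an unadjusted p under 0.05 (2.12% of all genes), and DESeq2 called none (0.0156% of all genes). The largest differences were -0.68 ± 0.38 for Psmb8, -0.51 ± 0.27 for H2-D1 and -0.45 ± 0.35 for H2-K1, all with an adjusted p of 0.999, while Tap1 differed by -0.0044 ± 0.27. The median turned on single libraries. It was -0.53 without KO vehicle 2, -0.16 without KO vehicle 1 and -0.50 without WT vehicle 1. KO vehicle 2 was the lowest KO library for 9 members, all but Nlrc5, and without it the median IMQ difference in KO was 0.10 in place of 0.35.

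Macrophage markers moved with IMQ as well, with median log2 fold changes of 1.88 in KO and 2.27 in WT. Their sum over 12 genes was 457 to 538 CPM in KO IMQ, against 110 to 148 CPM in KO vehicle ganglia, and 554 to 616 CPM in WT IMQ, against 108 to 142 CPM in WT vehicle ganglia. All 12 were higher and apart in both genotypes (12.3% of all genes in KO and 11.4% in WT), and none was at 0. EdgeR called 10 in KO and 11 in WT, where it called 1.1% and 1.3% of all genes. The marker genes of each cell type were added after their values had been seen, so these counts describe the libraries and test nothing. T and NK cell markers summed to 4.67 to 6.84 CPM in KO IMQ, against 1.99 to 4.89 CPM in KO vehicle, and to 4.87 to 7.14 CPM in WT IMQ, against 2.15 to 2.78 CPM in WT vehicle ganglia. Myelinating Schwann cell markers had medians of -0.32 in KO and -0.87 in WT, with 0 of 7 positive in both. Apart and lower were 5 in KO and 6 in WT, and Drp2 was called in WT (0.18% of all genes were called lower). Erythroid markers had medians of -2.94 in KO and -1.82 in WT over 5 genes, with 4 and 5 apart and lower (KO first) and none called. The share of all genes lower without overlap with IMQ was not counted. Neutrophil markers summed to 26.5 to 67.5 CPM in KO IMQ, against 20.5 to 256 CPM in KO vehicle ganglia (median -0.87, 1 of 5 positive and apart), and to 85.9 to 110 CPM in WT IMQ, against 51.5 to 68.7 CPM in WT vehicle ganglia (median 0.92, 5 of 5 positive and apart, Csf3r called). Their median difference between the genotypes (KO minus WT) was -1.79, with 0 of 5 called. Fibroblast markers had medians of 0.41 in KO (6 of 6 positive, 4 apart) and 0.31 in WT (4 of 6 positive, 2 apart), with none called. The part of these cells in the class I differences was not tested. In whole ganglia, more cells of a type and more RNA per cell cannot be told apart.

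Ratios between genes of the same library do not depend on how the libraries are scaled, but they still carry the length trends given above. The transcripts of Psmb8 (1628 bases) and Psmb9 (1352 bases) are longer than those of Psmb5 (760.5 bases) and Psmb6 (798 bases), and KO IMQ 2, with the highest length slope (0.16), had the highest Psmb8 to Psmb5 ratio. The part of these trends in the ratios was not tested. The ratios were chosen after the levels had been seen and are given without a test. Psmb8 counts per Psmb5 count, the inducible over the constitutive chymotrypsin-like subunit, were 0.470 and 0.618 in KO IMQ, against 0.283, 0.251 and 0.376 in KO vehicle ganglia. In WT they were 0.520 and 0.530 with IMQ, against 0.266, 0.267 and 0.263 with vehicle. The 3 WT vehicle ratios were close to each other, although the Psmb8 level of these libraries ran from 11.4 to 16.5 CPM. All IMQ ratios exceeded all vehicle ratios of either genotype. The share of other gene pairs that part in this way was not counted.

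Ratios of the other inducible subunits to their constitutive partners were also higher with IMQ, and in KO the means of these partners were lower. Psmb9 per Psmb6 was 0.0457 and 0.0530 in KO IMQ, against 0.0218 to 0.0288 in KO vehicle ganglia, and 0.0368 and 0.0528 in WT IMQ, against 0.0258 to 0.0303 in WT vehicle ganglia. Psmb10 per Psmb7 was 0.130 and 0.149 in KO IMQ, against 0.108 to 0.123 in KO vehicle ganglia, and 0.145 and 0.154 in WT IMQ, against 0.121 to 0.137 in WT vehicle ganglia. Within each genotype neither ratio overlapped, although Psmb10 itself did. Of single genes, 12.3% in KO and 11.4% in WT were higher without overlap. In KO, Psmb10 averaged 29.5 ± 2.60 CPM with IMQ (SD, n = 2) and 34.9 ± 11.97 CPM with vehicle (SD, n = 3), and Psmb7 averaged 213 ± 39.2 and 303 ± 102 CPM (IMQ first). Both overlapped and neither was called, with a log2 fold change of -0.24 for Psmb10. The constitutive subunits were not called: their log2 fold changes were -0.48 ± 0.26 for Psmb5, -0.42 ± 0.25 for Psmb6 and -0.51 ± 0.30 for Psmb7 in KO, and 0.03 ± 0.26, -0.05 ± 0.24 and -0.08 ± 0.30 for the same genes in WT. Tap1 per Tap2 was 0.528 and 0.538 in KO IMQ, against 0.277, 0.355 and 0.357 in KO vehicle ganglia, and 0.450 and 0.511 in WT IMQ, against 0.353, 0.363 and 0.373 in WT vehicle ganglia. H2-D1 per H2-K1 was 2.03 and 2.05 in KO IMQ, against 2.29, 2.60 and 2.11 in KO vehicle ganglia, and 2.14 and 2.04 in WT IMQ, against 2.143, 2.12 and 2.48 in WT vehicle ganglia. It was lower without overlap with IMQ in KO, and the WT groups overlapped.

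**Figure D4:**
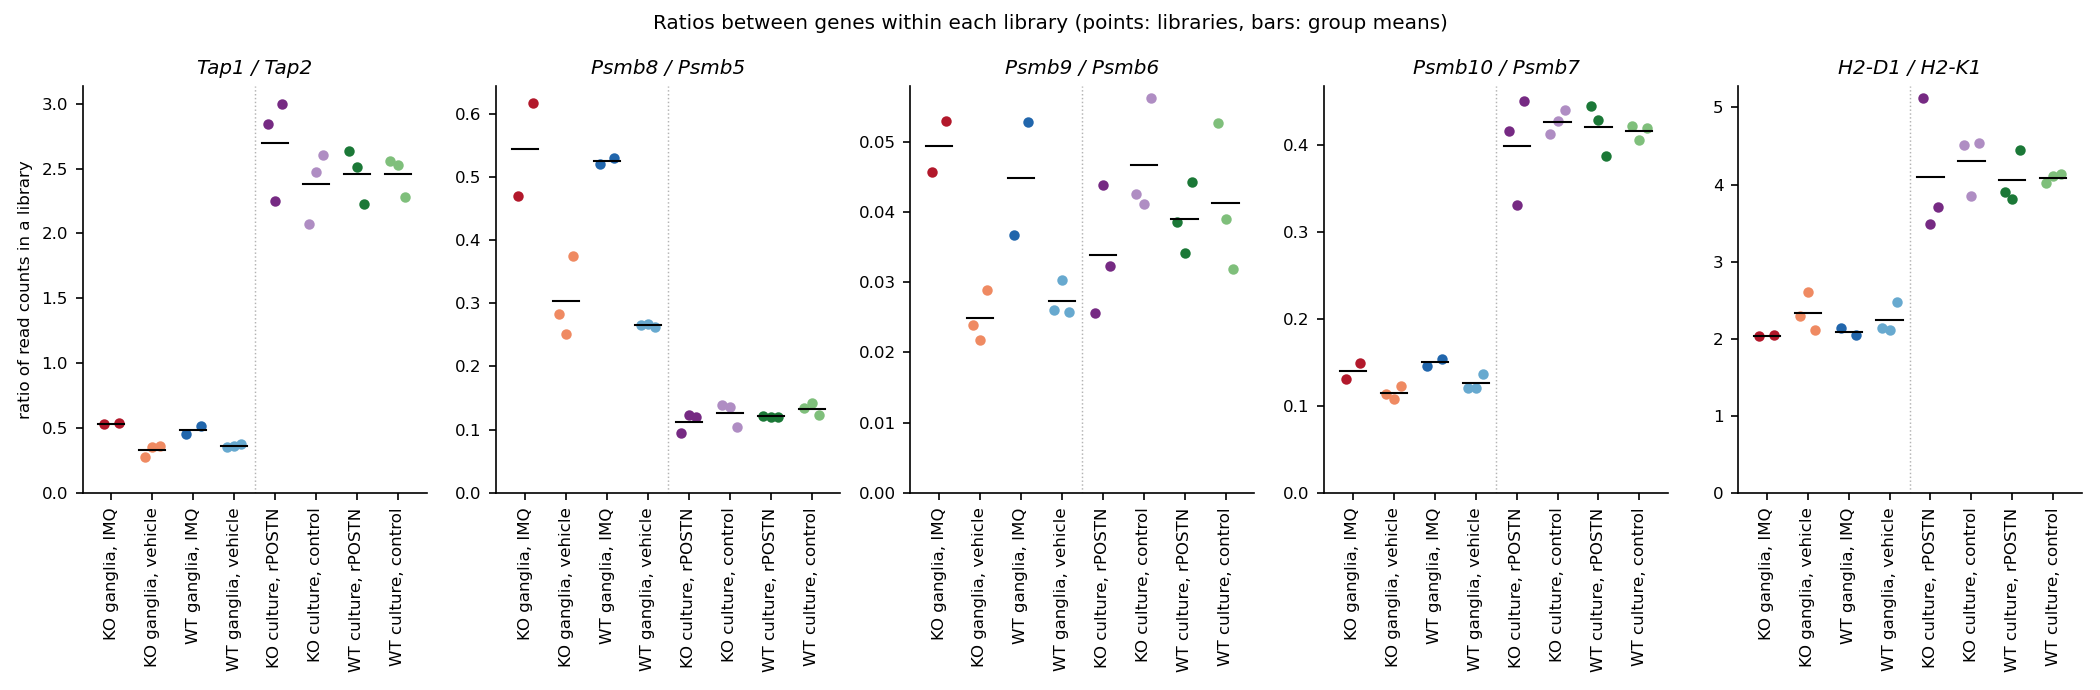
Ratio of read counts between 2 genes of the same library (y axis, linear, from 0) for 5 pairs, with libraries as points and group means as bars; the dotted line parts ganglia from cultures. Psmb8 over Psmb5 lies at 0.470 to 0.618 in the 4 IMQ libraries and at 0.251 to 0.376 in the 6 vehicle libraries, and Tap1 over Tap2 is above 2 in every culture and below 1 in every ganglion.

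No member was called between KO and WT in either ganglion condition. With vehicle all 10 members were higher in KO in the mean, by 0.012 (Psmb9) to 0.37 (Psmb8) on the log2 scale with a median of 0.18. The median was 0.30 without KO vehicle 2, 0.10 without KO vehicle 1 and 0.085 without KO vehicle 3. No member's libraries were apart (3.01% of all genes were higher and 3.89% lower without overlap), and 0 of 10 were called by edgeR (0.0116% of all genes), 0 had an unadjusted p under 0.05 (3.08%, of which 0.884% higher), and 0 were called by DESeq2 (0.175%). In the same comparison myelinating Schwann cell markers had a median of -0.66 (0 of 7 positive, 6 apart), fibroblast markers of -0.51 (1 of 6 positive, 3 apart), neutrophil markers of 0.64 (5 of 5 positive, none apart) and class II genes of 0.75 (5 of 7 positive, none apart), with none called. Their part in the members' values was not tested. With IMQ the members' median stood at -0.14, at -0.25 when WT IMQ 1 was left out and at -0.025 when WT IMQ 2 was, and 0 of 10 were called by edgeR (0.00581%), 0 had an unadjusted p under 0.05 (1.85%) and 0 were called by DESeq2 (0.0125%). KO IMQ libraries lay below WT IMQ libraries for H2-K1, H2-D1, Tapbp, Psmb8 and Psmb10 (5 of 10, against 17.0% of all genes) and above them for Nlrc5 (1 of 10, against 16.2%), with 2 libraries a group. The widest were -0.34 ± 0.31 for Psmb10 and 0.41 ± 0.27 for Nlrc5 (adjusted p = 0.997 for both).

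Genes around the members were read from lists of the pathway. Of 16 other class I heavy chains 10 were tested, and none was called with IMQ in either genotype, with medians of 0.25 in KO and 0.51 in WT. H2-T23, which encodes the mouse Qa-1 molecule, stood at 20.5 to 21.6 CPM in KO IMQ, against 13.6 to 21.4 CPM in KO vehicle ganglia, and at 21.2 to 27.4 CPM in WT IMQ, against 14.6 to 19.5 CPM in WT vehicle ganglia. H2-Q4, H2-Q7 and H2-T10 had log2 fold changes of 0.29, 0.59 and 0.57 in KO and of 0.76, 0.99 and 0.51 in WT, none of them called. Other loading and trimming genes (10 of 11 tested), had medians of 0.13 in KO and 0.092 in WT, with none called. Erap1, which trims peptides, differed by 0.27 in KO and 0.17 in WT, Tapbpl by 0.18 and 0.074, and the chaperones Hspa5 by 0.18 and 0.26 and Calr by 0.22 and 0.27 (KO first). The 4 proteasome activators had medians of -0.13 in KO and 0.080 in WT, with Psme1 at -0.14 and 0.13, Psme2 at -0.30 and 0.054, Psme3 at 0.12 and 0.10 and Psme4 at -0.12 and -0.012 (KO first). The 12 other 20S subunit and assembly genes had medians of -0.37 in KO and -0.061 in WT, again with none called. Psmb3, Psma5, Psmb1 and Psmb4 stood at -0.61, -0.47, -0.44 and -0.39 in KO and at -0.14, -0.026, -0.095 and -0.067 in WT.

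Transcription factors gave 2 calls of 16, the same 2 genes in each genotype, against 1.1% of all genes in KO and 1.3% in WT. Irf7, a factor of the type I interferon response, rose to 22.02 and 14.7 CPM in KO IMQ ganglia, against 6.74, 4.47 and 5.84 CPM in KO vehicle ganglia, and to 12.3 and 18.9 CPM in WT IMQ ganglia, against 4.97, 5.19 and 4.55 CPM in WT vehicle ganglia. Its log2 fold changes were 1.70 ± 0.24 in KO (adjusted p = 0.00927) and 1.67 ± 0.25 in WT (adjusted p = 0.00973). Irf8, a factor of myeloid cells, rose to 6.43 and 5.80 CPM in KO IMQ, against 3.28, 1.99 and 2.63 CPM in KO vehicle ganglia, and to 6.65 and 8.02 CPM in WT IMQ, against 2.13, 2.46 and 2.15 CPM in WT vehicle ganglia. It changed by 1.23 ± 0.21 in KO (adjusted p = 0.0270) and by 1.70 ± 0.21 in WT (adjusted p = 0.00350). Stat2 and Irf9, parts of the interferon-activated complex ISGF3, were not called, with 0.56 ± 0.13 and 0.53 ± 0.15 in KO (adjusted p = 0.109 and 0.273) and 0.36 ± 0.13 and 0.34 ± 0.16 in WT (0.447 and 0.703). The list median was 0.25 in KO and 0.15 in WT. These calls rested on few libraries. Irf7 lost its call in KO without IMQ 1 (1.38, adjusted p = 0.121), without vehicle 3 (1.73, 0.0521) and with only the KO groups in the fit (1.70, 0.0749), and in WT without IMQ 2 (1.33, 0.117) and without vehicle 3 (1.62, 0.0618). Irf8 lost it in KO without IMQ 1 (1.15, 0.270), IMQ 2 (1.30, 0.116), vehicle 2 (1.05, 0.0559) or vehicle 3 (1.24, 0.118) and with only the KO groups (1.22, 0.199), and in WT without IMQ 2 (1.56, 0.0551). The numbers in brackets are the log2 fold change and its edgeR adjusted p.

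Interferon ligands, receptors and kinases had 8 of 10 genes tested and none called, with medians of 0.033 in KO and 0.066 in WT. Ifngr1, a receptor chain for interferon gamma, was at 43.6 ± 1.24 CPM in KO IMQ and 35.0 ± 2.16 CPM in KO vehicle ganglia (SD, n = 2 and 3), and at 43.2 ± 0.783 CPM in WT IMQ and 36.1 ± 2.55 CPM in WT vehicle ganglia (SD, n = 2 and 3). Its log2 fold changes were 0.32 ± 0.10 in KO (adjusted p = 0.385) and 0.26 ± 0.10 in WT (adjusted p = 0.572). Tyk2, Ifnar1 and Jak1 were between -0.17 and 0.14 in both genotypes. MHC class II genes, which present peptides taken up from outside the cell, had medians of -1.07 in KO and -0.31 in WT over 7 genes, and none was called. At an unadjusted p under 0.05, 4 of 7 were lower in KO (8.39% of all genes in either direction) and 0 of 7 differed in WT (7.27%). In KO 2 genes were lower without overlap. In WT 1 gene was lower without overlap and 1 higher, at 0.61 (11.4% of all genes were higher). The share of all genes lower without overlap with IMQ was not counted. H2-Aa had 28.6 and 17.3 CPM in KO IMQ, against 69.3, 29.5 and 73.7 CPM in KO vehicle ganglia, and 19.0 and 25.5 CPM in WT IMQ, against 39.0, 28.4 and 27.5 CPM in WT vehicle ganglia. Both pairs were apart and lower with IMQ, with log2 fold changes of -1.32 ± 0.39 in KO (adjusted p = 0.279) and -0.51 ± 0.38 in WT (adjusted p = 0.9996). H2-Ab1, H2-Eb1 and Cd74 differed by -1.14, -1.31 and -1.07 in KO and by -0.27, -0.44 and -0.21 in WT, uncalled.

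Of the receptors that read class I, 7 of 9 were tested, with medians of 0.81 in KO and 1.56 in WT. Called by edgeR were 1 in KO and 2 in WT, against 1.1% and 1.3% of all genes. Pirb, an inhibitory class I receptor of myeloid cells that neurons also express, rose to 17.7 and 14.4 CPM in KO IMQ ganglia, against 5.40, 2.58 and 3.95 CPM in KO vehicle ganglia, and to 19.0 and 16.2 CPM in WT IMQ ganglia, against 5.02, 4.45 and 5.40 CPM in WT vehicle ganglia. The log2 fold changes were 2.03 ± 0.25 in KO (adjusted p = 0.00449) and 1.83 ± 0.25 in WT (adjusted p = 0.00573). Pirb lost its call without IMQ 1 in KO (1.88, adjusted p = 0.0658) and in WT (1.71, 0.0694), and in KO with only the KO groups (2.03, 0.0749). Cd8a, the co-receptor by which T cells bind class I, had 16 and 13 counts in KO IMQ libraries, against 3, 6 and 7 in KO vehicle libraries, and 13 and 14 counts in WT IMQ libraries, against 2, 2 and 2 in WT vehicle libraries. It rose in WT (2.71 ± 0.43, adjusted p = 0.0147) and was not called in KO (1.59 ± 0.36, adjusted p = 0.101); the difference between genotypes was -1.11 ± 0.58 (adjusted p = 0.999). With so few counts the WT call was lost without IMQ 1 (2.86, adjusted p = 0.0736), IMQ 2 (2.55, 0.153), vehicle 2 (2.69, 0.0728) or vehicle 3 (2.66, 0.0808). Pilra and Klrd1 had 1.13 ± 0.50 and 0.81 ± 0.45 in KO and 1.63 ± 0.49 and 1.56 ± 0.48 in WT, uncalled. No gene of these lists was called for KO against WT in ganglia, for the difference of the IMQ effects or for rPOSTN in culture.

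In neuron cultures no class I gene was called for rPOSTN against control. In KO cultures the log2 fold changes ran from -0.48 (Psmb9) to 0.16 (Tap1) with a median of 0.04, and in WT cultures all 10 were negative, from -0.25 (Psmb8) to -0.03 (H2-K1), with a median of -0.09; over all genes the medians were 0.0079 in KO and -0.00080 in WT. EdgeR called 0 of 10 members in KO cultures (0.0% of 16756 genes) and 0 of 10 in WT cultures (0.0% of 16639), none had an unadjusted p under 0.05 (0.925% and 3.97% of all genes, KO first), and DESeq2 called none (0.0% in both). Psmb9 was the 1 member whose libraries were apart, with 3.76, 4.56 and 3.49 CPM in KO rPOSTN cultures, against 5.19, 4.96 and 6.30 CPM in KO control cultures (-0.48 ± 0.24, edgeR adjusted p = 0.9996; 2.81% of all genes were lower without overlap). In WT rPOSTN cultures it had 4.47, 3.89 and 5.19 CPM, against 6.65, 4.77 and 3.84 CPM in WT control cultures, which overlapped. No member's WT libraries were apart, against 5.04% of all genes higher and 4.62% lower. Nlrc5 in KO rPOSTN culture 1 stood apart at 7.85 CPM, against 12.2 to 15.7 CPM in the other 11 cultures. The rPOSTN effect in KO minus that in WT had a median of 0.12 over the members, with 0 of 10 called by edgeR (0.0% of 17519 genes), 0 at an unadjusted p under 0.05 (1.95%) and 0 by DESeq2 (0.0%). Leaving out both KO cultures numbered 3, an alternative chosen after seeing the data, gave a KO median of 0.06 and a median difference of 0.15, with 0 called. Without single libraries the KO median ran from -0.014 (without KO rPOSTN 1) to 0.065 (without KO control 1) and was also below 0 without KO rPOSTN 2 (-0.0037) or KO control 3 (-0.00058). The WT median ran from -0.15 (without WT control 3) to -0.043 (without WT control 1), and it was -0.057 without WT rPOSTN 3. The median difference ran from 0.045 (without KO rPOSTN 1) to 0.16 (without WT control 3).

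**Figure D5:**
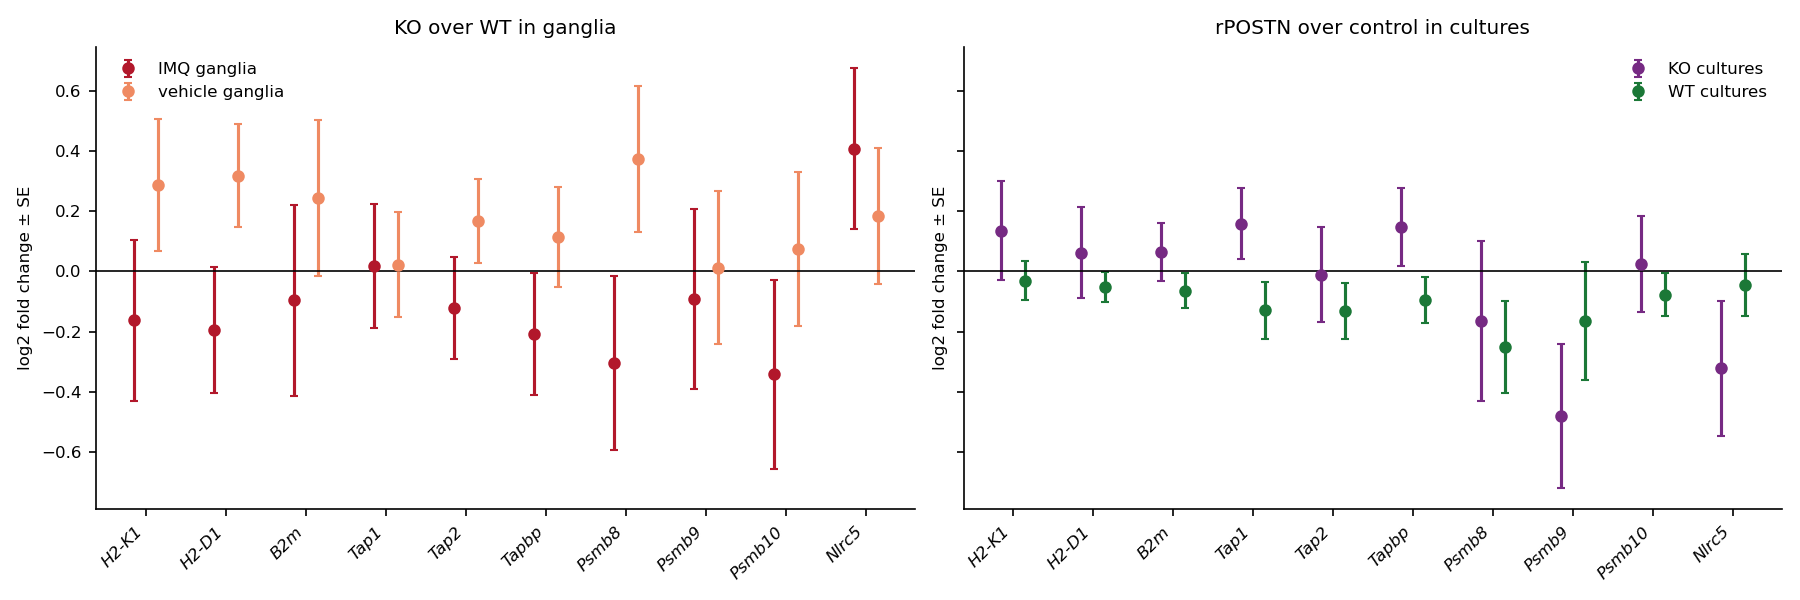
Log2 fold changes (points) and SE (bars) of the 10 members for KO over WT in ganglia (left, IMQ and vehicle) and for rPOSTN over control in cultures (right, KO and WT). No member was called, and the points lie between -0.48 and 0.41.

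Cultures and ganglia came from different tables, so their levels are set side by side without a test. Tap1, Tap2 and Psmb8 did not overlap between the 12 cultures and the 10 ganglia. Tap1 alone was higher in every culture than in every ganglion, and Tap2 and Psmb8 were lower. That is no larger a share than among all genes, of which 26.3% were higher and 22.4% lower. Tap1 was at 31.8 to 44.0 CPM in cultures, against 7.18 to 16.2 CPM in ganglia, a ratio of 3.49 between the means over groups. Tap2 went the other way, with 13.95 to 17.4 CPM in cultures, against 20.2 to 31.6 CPM in ganglia (ratio 0.606). The counts of Tap1 per Tap2 were accordingly 2.07 to 3.00 in cultures and 0.277 to 0.538 in ganglia, and per kilobase of transcript they were 2.56 to 3.71 in cultures and 0.342 to 0.665 in ganglia. The order of the 2 transporter subunits thus differed between cultures and ganglia. Exons of both overlap genes on the opposite strand, and the strand setting of the counting is not known. The part of this in the ratio was not tested.

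Psmb8 was the member with the lowest culture level relative to ganglia, with 3.20 to 5.82 CPM in cultures, against 10.8 to 28.2 CPM in ganglia (ratio 0.225). Its ratio to Psmb5 was 0.0946 to 0.141 in cultures and 0.251 to 0.618 in ganglia. For the third pair the order was the reverse: Psmb10 per Psmb7 was 0.331 to 0.450 in cultures and 0.108 to 0.154 in ganglia, with Psmb7 at 65.2 to 84.7 CPM in cultures and 185 to 413 CPM in ganglia, while Psmb10 overlapped (22.95 to 35.2 and 23.1 to 47.0 CPM). Psmb9 overlapped as well, at 3.49 to 6.65 CPM in cultures and 2.80 to 7.84 CPM in ganglia. The heavy chains shifted against each other, with H2-D1 per H2-K1 at 3.49 to 5.12 in cultures and 2.03 to 2.60 in ganglia. H2-D1 spanned 341 to 508.5 CPM in cultures and 201 to 394 CPM in ganglia, H2-K1 81.1 to 130 and 78.7 to 193 CPM (cultures first), and B2m 350 to 415 and 199 to 469 CPM. For B2m the ratio of culture to ganglion means was 1.06, and 0.9498 with scaling over all 22 libraries together, so it has no direction. Nlrc5 was at 7.85 to 15.7 CPM in cultures and 3.94 to 9.40 CPM in ganglia, a ratio of 2.19 with overlap.

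In the order of the 8 group means, neighbours mostly overlapped. For Tap1 the 4 culture groups (35.6 to 41.3 CPM) came first, then KO IMQ (14.1 CPM) and WT IMQ ganglia (13.9 CPM), then KO vehicle (8.17 CPM) and WT vehicle ganglia (8.04 CPM). Only the steps from cultures to IMQ ganglia and from IMQ to vehicle ganglia were free of overlap. For Psmb8 the order was WT IMQ, KO IMQ, KO vehicle and WT vehicle ganglia, then the cultures, and 2 neighbouring pairs were free of overlap: KO IMQ at 21.8 CPM against WT IMQ ganglia at 26.9 CPM, and WT control cultures at 5.41 CPM against WT vehicle ganglia at 13.4 CPM. For B2m, Tapbp, Psmb9 and Psmb10 every pair of neighbouring groups overlapped. Macrophage markers summed to 74.9 to 93.1 CPM in cultures, below the 108 to 616 CPM of the ganglia, with Fcgr4 at 0 in KO control cultures, and H2-Aa, a class II gene, had 0 to 8 counts per culture. T and NK cell markers summed to 0.567 to 1.63 CPM there, with Ncr1 and Gzma at 0 in all 4 culture groups, whereas no ganglion group had one of these markers at 0. The part of these cells in the culture levels was not tested.

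The genes whose pattern was most like that of the members, by the correlation of log2(CPM + 1) with the members' mean z score over the 10 ganglia, were H2-T23 (r = 0.96), Igkc (0.95), Bst2 (0.95), Plod3 (0.94) and Klrb1a (0.94), among 15056 genes. Over the 12 cultures they included Cog5, Gal and Rps27a (0.81 each) and Arl6ip4 (0.80), among 14917 genes. The members themselves followed their mean score unevenly, and each is part of that mean, which raises its own r. In ganglia 8 of 10 had r of 0.78 to 0.99, against 0.58 for Psmb10 and 0.51 for Nlrc5, and in cultures r ran from -0.096 (Nlrc5) to 0.79 (B2m), with 0.31 for Psmb10, 0.335 for H2-D1 and 0.36 for Psmb9. These values describe libraries that share groups, depth and length trends, and genes with placeholder names were left out.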

How the data were processed

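Each of the 3 tables the authors deposited (ganglia, WT cultures, KO cultures) holds raw read counts by Ensembl ID with no normalization. Per the labels' protocols, mRNA was taken by its poly-A tail, strands were marked with dUTP and fragments were read from both ends. Named in the submitters' processing notes are GRCm39, TopHat2, Bowtie2 2.2.3 and HISAT2 2.1.0; no source used here names the counting tool, its strand setting or the annotation. Of 55487 genes, 55141 received a symbol from GENCODE M21, a GRCm38 annotation, which also gave transcript lengths (median over basic protein-coding transcripts). Because the builds differ, coordinates are printed only for RefSeq promoters, on GRCm38.p6.

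CPM used TMM-scaled library sizes, over the 10 ganglia and over the 12 cultures. Genes were tested with edgeR 4.0.16 (robust quasi-likelihood test, two-sided, filterByExpr, TMM) in R 4.3.3, adjusted by Benjamini-Hochberg over all genes tested and called below 0.05. All 4 ganglion groups shared 1 fit, each culture table had its own, and all 12 cultures were fitted together for the interaction. Genotype and table coincide in culture, so KO and WT cultures were not compared by a test. The SE is the size of the log2 fold change over the square root of F. The fit was tested on simulated data. Alternatives were DESeq2 1.42.0, no filter, no TMM, the replicate number as a block, an offset for each library's length trend (lowess), only the compared groups, and each library left out. The members and lists were chosen with earlier results of these data known. Named were all members, their constitutive partners, up to 4 genes with the smallest p of each list and the 5 genes of the highest correlation in ganglia and in cultures, of which 1 is not reported here; Xist and the marker genes were added after their values were seen. Depth was 16.7 to 24.1 M counts per library, so counting error matters mainly for genes with few counts.

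Replicate numbers were checked by correlating the residuals of same-numbered libraries over genes. Every pair passed 0.1 in KO and WT vehicle ganglia (r = 0.870, 0.830 and 0.162), KO cultures (0.390, 0.714 and 0.634) and WT cultures (0.410, 0.396 and 0.676), which were taken as paired. IMQ and vehicle ganglia passed it as well (0.755 and 0.761 in KO, 0.231 and 0.200 in WT), so the threshold does not part paired from unpaired sets. Only KO and WT IMQ ganglia fell below it (0.0564 for both numbers). The main fits did not use the numbers, so every p and SE they gave, also in the cultures, is unpaired. With the replicate block the members' median for rPOSTN was 0.028 in KO and -0.085 in WT cultures. KO vehicle 1 and WT vehicle 1 also had the lowest length slopes (-0.22 and -0.18), and the part of these in r was not tested. The labels do not say what a number marks.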

Additional observations from a re-analysis of the deposited data

How the results depend on the processing

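For the count of members called, edgeR gave 0 in all 8 comparisons, and so it stayed with library totals in place of TMM and without any single library. With IMQ in WT ganglia the count was 2 without the filter on low counts (0.966% of all genes called), 2 with the replicate block (1.63%), 4 with the length offset (2.06%), 3 with DESeq2 (1.89%) and 1 with only the compared groups (1.28%). In KO ganglia it was 1 without the filter (0.788%), 1 with the replicate block (1.39%), 1 with the length offset (1.62%) and 1 with DESeq2 (1.25%). In the other 6 comparisons it was 0 under every alternative run. All 10 members stayed positive with IMQ in WT under all 11 alternatives, with a median of 0.54 (without WT IMQ 2) to 0.82 (without WT IMQ 1). In KO the median ran from 0.10 (without KO vehicle 2) to 0.51 (length offset). Over all genes edgeR called 190 with IMQ in KO and 224 in WT, DESeq2 275 and 358, and the length offset 279 and 355; without 1 library the counts were 56 to 165 in KO and 82 to 160 in WT, and with only the KO groups 58. For KO against WT with vehicle edgeR called 2 genes, 22 without the filter, 3 with the replicate block and 30 came from DESeq2, and with IMQ 1 gene, 2 without the filter, 5 with only these groups and 4 from DESeq2. The cause of these changes was not tested.

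The numbers of the IMQ and vehicle libraries share only a number (residual r = 0.755 and 0.761 in KO, 0.231 and 0.200 in WT, from 2 pairs each), and the replicate block there gave 2 member calls in WT and 1 in KO. In the comparisons taken as paired the block changed no member's call. With the block the Tap1 interaction in ganglia was 0.01425 and Psmb9 for KO against WT with vehicle was -0.000604.

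Other signs that changed were all of values that were not called. Without the filter, the Tap1 interaction in ganglia was 0.00216 and Psmb9 for KO against WT with vehicle was -0.00259. Without TMM these were 0.0334 and -0.00967, and Psmb10 with rPOSTN in KO cultures was -0.0107. With the length offset the Psmb9 interaction was 0.0612, Psmb9 for KO against WT was -0.0477 with vehicle and 0.0135 with IMQ, and B2m for KO against WT with IMQ was 0.0631. Without the KO cultures numbered 3, Tap2 with rPOSTN in KO was 0.0228 and the Psmb8 interaction in culture -0.0380.

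Leaving out each library in turn moved the median of the members for KO against WT with vehicle between 0.085 and 0.30, and changed the sign of these log2 values. With IMQ in KO, Tapbp ran from -0.23 to 0.10, Tap2 from -0.0446 to 0.19 and Psmb10 from -0.47 to 0.0386. For the IMQ interaction, Tap1 ran from -0.22 to 0.25, Nlrc5 from -0.0172 to 0.49 and Psmb9 from -0.36 to 0.0814. For KO against WT with vehicle, Tapbp ran from -0.0637 to 0.27, Psmb10 from -0.21 to 0.31, Tap1 from -0.16 to 0.11, Nlrc5 from -0.0926 to 0.33 and Psmb9 from -0.17 to 0.27. For KO against WT with IMQ, Tap2 ran from -0.26 to 0.0269, Tap1 from -0.20 to 0.27 and Psmb9 from -0.26 to 0.0937. For rPOSTN in KO cultures, Tap2 ran from -0.11 to 0.0385, Psmb10 from -0.13 to 0.17, H2-K1 from -0.03335 to 0.27 and H2-D1 from -0.0635 to 0.21. For rPOSTN in WT cultures, H2-K1 ran from -0.0843 to 0.0477, Nlrc5 from -0.0845 to 0.0335 and Psmb9 from -0.34 to 0.0714. For the rPOSTN interaction, Psmb8 ran from -0.0692 to 0.24, Psmb10 from -0.0480 to 0.25 and H2-D1 from -0.0142 to 0.26.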
